A study of Mus musculus with 12 samples.

Results

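Immediate-early genes of the EGR, NR4A and IER families, together with Srf, were followed in mouse liver after acute iron overload and after a synthetic glucocorticoid. The 10 genes were Egr1, Egr2, Egr3, Nr4a1, Nr4a2, Nr4a3, Ier2, Ier3, Ier5 and Srf, taken by symbol from the 55414 genes of a raw count table. Female C57BL/6J mice, 8 to 12 weeks old, received an intraperitoneal injection of FeSO4 (300 mg/kg) or of NaCl (saline). After 6 h they received dexamethasone (DEX, 10 mg/kg), a synthetic agonist of the glucocorticoid receptor, or PBS. Livers were taken 2 h later, 8 h after the first injection, and polyadenylated RNA was sequenced from 3 mice in each of 4 groups, called NaCl/PBS, NaCl/DEX, FeSO4/PBS and FeSO4/DEX. All 12 mice carried no modified allele, and every mouse received 2 injections. The 4 comparisons between groups ask how FeSO4 and DEX each change these genes, how DEX acts once FeSO4 is on board, and how FeSO4 acts in DEX-treated mice; a 5th tests whether the DEX response differed between NaCl and FeSO4 mice.

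Immediate-early genes are transcribed within minutes of a stimulus without new protein synthesis, and their short-lived mRNAs disappear again soon after it. Many are switched on through serum response factor, the protein of Srf, which binds CArG boxes in their promoters together with ternary complex factors phosphorylated by ERK, or with MRTF proteins released by actin changes. Others depend on CREB, which binds cAMP response elements, or on NF-kappaB. EGR proteins are zinc finger transcription factors, NR4A proteins are orphan nuclear receptors that act without a known physiological ligand, and IER proteins are a loose group named for their kinetics rather than for a shared fold. In liver, Egr1 is known from injury and regeneration, and NR4A receptors from the fasting control of glucose output.

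The promoters of the members shown differ in the elements they carry next to the start site. The 300 bases upstream of the canonical transcript's start (GRCm39 mouse genome, GENCODE vM39 genes) were read for 8 members. CArG boxes lay in 2 of these 8, Egr2 and Srf, against 1.71% of 21627 protein-coding promoters of the same length searched on both strands. The 100 bases that end at the start are shown for the 4 of these 8 members with any match, because their matches all fell there. They are written 5′ to 3′ on the gene's own strand, with matched letters in capitals. Capitals mark a CArG box in Egr2, a cAMP response element in Ier2, an NF-kappaB site on the opposite strand in Ier3, and in Srf an EGR site followed by 2 CArG boxes.
Egr2, chr10:67373592-67373691, plus strand: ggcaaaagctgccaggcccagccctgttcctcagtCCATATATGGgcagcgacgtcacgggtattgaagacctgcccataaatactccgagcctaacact
Srf, chr17:46867120-46867219, minus strand: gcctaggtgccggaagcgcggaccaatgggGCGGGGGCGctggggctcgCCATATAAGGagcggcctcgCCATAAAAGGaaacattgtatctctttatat
Ier2, chr8:85389484-85389583, minus strand: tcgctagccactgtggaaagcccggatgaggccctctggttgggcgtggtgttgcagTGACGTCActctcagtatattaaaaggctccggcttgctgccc
Ier3, chr17:36132468-36132567, plus strand: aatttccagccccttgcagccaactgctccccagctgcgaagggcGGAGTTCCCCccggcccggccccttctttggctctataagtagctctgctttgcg

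Counted back from the start, the CArG box lay 65 to 56 bases upstream in Egr2. Srf held its own protein's box 51 to 42 and again 31 to 22 bases upstream, and its EGR site (GCGNGGGCG, in 4.7% of the promoters) 70 to 62 upstream. The cAMP response element of Ier2 (TGACGTCA, in 1.74% of promoters) lay 43 to 36 bases upstream. The NF-kappaB site of Ier3 lay 55 to 46 upstream, and 8.81% of promoters had such a site. None of the 8 windows held the glucocorticoid response element letters GNACANNNTGTNC, found in 0.398% of promoters. The same was true of the ETS site CCGGAAGT (2.76%), the AP-1 site TGANTCA (7.4%) and the NR4A element AAAGGTCA, called NBRE (1.37%). The windows of Nr4a1, Nr4a2, Nr4a3 and Ier5 held no exact match to any of these motifs, which says nothing about other starts or degenerate sites.

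The 12 libraries had 16.3 to 23.8 M counted reads. Of the 10 members, 8 passed the filter on low counts and were tested among 13857 genes with edgeR, with the false discovery rate (FDR) adjusted over all of them; Egr2 and Egr3 did not pass. Levels are given as normalized counts, that is reads scaled by library size and TMM factor, and changes as log2 fold changes (LFCs). TMM factors, which correct for RNA composition, were 1.14 to 1.16 in NaCl/PBS and 0.90 to 0.95 in FeSO4/PBS. FeSO4/PBS mouse 1 correlated least with its own group over all genes (mean r 0.971), and the median SD of log2 CPM (counts scaled to library size) over genes was 0.27 in FeSO4/PBS against 0.16 in NaCl/PBS. The 8 hepatocyte markers all passed the filter, and their summed level of 1834730 to 2808490 normalized counts per library was above that of each other marker list.

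Among the 8 members that passed the filter, Ier2 and Egr1 had the highest levels per kilobase of exon in every group (plot of levels per kilobase). In NaCl/PBS mice, Ier2 had 265 ± 43.4 normalized counts per kilobase (SD, n = 3) and Egr1 185 ± 95.2, and the ranges of these 2 genes overlapped. Srf (45.4 ± 7.06), Ier5 (42.0 ± 6.71) and Ier3 (23.4 ± 13.4) followed, and each overlapped its neighbour in that order. Nr4a1 (3.61 ± 1.55) lay below Ier3 without overlap, and Egr3, Nr4a2, Egr2 and Nr4a3 were at 0.682 to 2.16 per kilobase on average, each overlapping its neighbour. The divisor was the annotated exonic length of each gene, 10903 bases for Nr4a1 and 8207 for Nr4a2 against 1139 for Ier3. Transcripts shorter than this length would give a higher level per kilobase, and which transcripts were present was not tested. The order of the genes in each group, and the gap between Nr4a1 and Ier3, therefore depend on this divisor. In FeSO4/PBS mice Ier3 came next after Ier2 and Egr1, at 170.3 ± 43.3 per kilobase, below the whole range of Egr1 and above that of Srf. In NaCl/DEX mice Ier5 and Ier3 had 11.3 ± 0.786 and 5.80 ± 3.92, and the ranges of Ier2, Egr1, Srf, Ier5 and Ier3 were separate from one another.

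**Figure D1:**
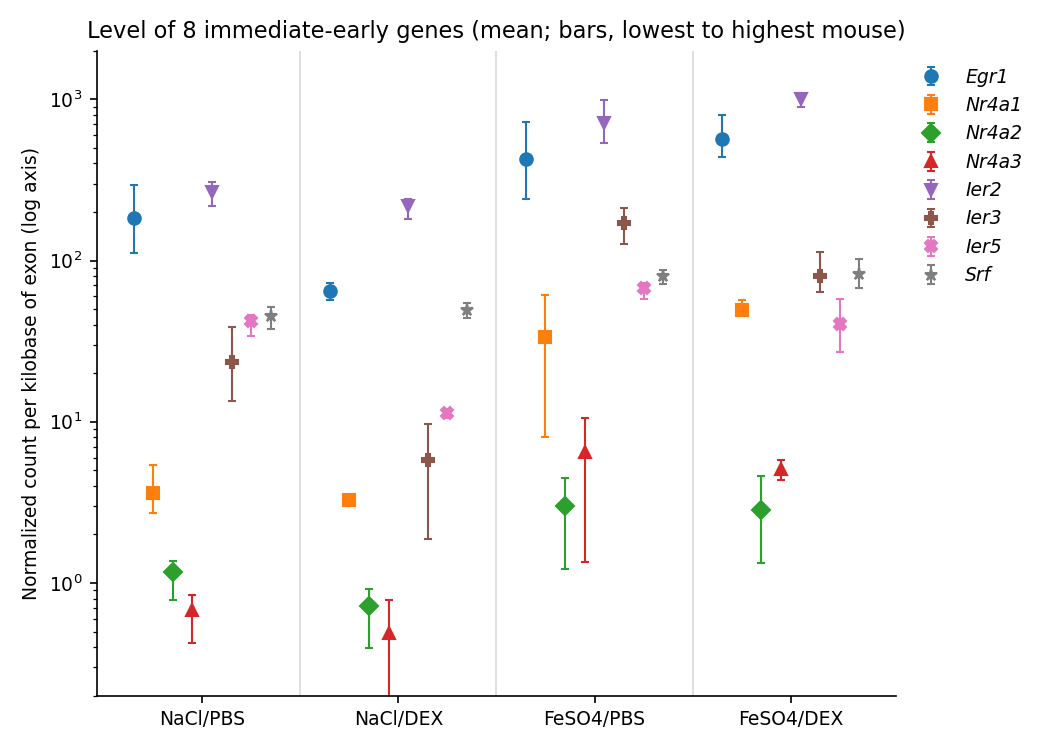
Normalized counts per kilobase of exon (log axis) of the 8 members that passed the filter, by group; symbols are means of 3 mice and bars run from the lowest to the highest mouse, the bar of Nr4a3 in NaCl/DEX running off the axis because 1 mouse had 0 reads. Ier2 and Egr1 lie at the top in each group, and Ier3 moves from 23.4 in NaCl/PBS to 170.3 in FeSO4/PBS and to 5.80 in NaCl/DEX.

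FeSO4 raised all 8 members that passed the filter. In FeSO4/PBS against NaCl/PBS mice, edgeR called 8 of 8 higher and 0 lower (edgeR FDR of 0.05 or less). Of all tested genes 27.2% were called higher and 27.3% lower. At an unadjusted p under 0.05, 0 members were lower, where 4151 of all genes were. DESeq2, which filters in its own way, tested 10 members and called 7 higher and 0 lower. Of its 17748 genes, 4032 were higher and 3718 lower. The median LFC of the 8 was 1.39, and that of all tested genes was -0.015. The filter read all 12 libraries, so a gene low in NaCl mice, such as Nr4a3, could pass it through the FeSO4 groups where it is high. The count of 8 of 8 is therefore not independent of the filter. With the libraries of the compared groups alone, 7 members passed the filter and 6 were called higher. Nr4a1, Nr4a3 and Ier3 moved furthest, with LFCs of 3.24, 3.19 and 2.88, and Ier5 and Srf least, with 0.68 and 0.83. In the bulk RNA of a whole liver, fewer cells of a type and less RNA per cell cannot be told apart.

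**Figure D2:**
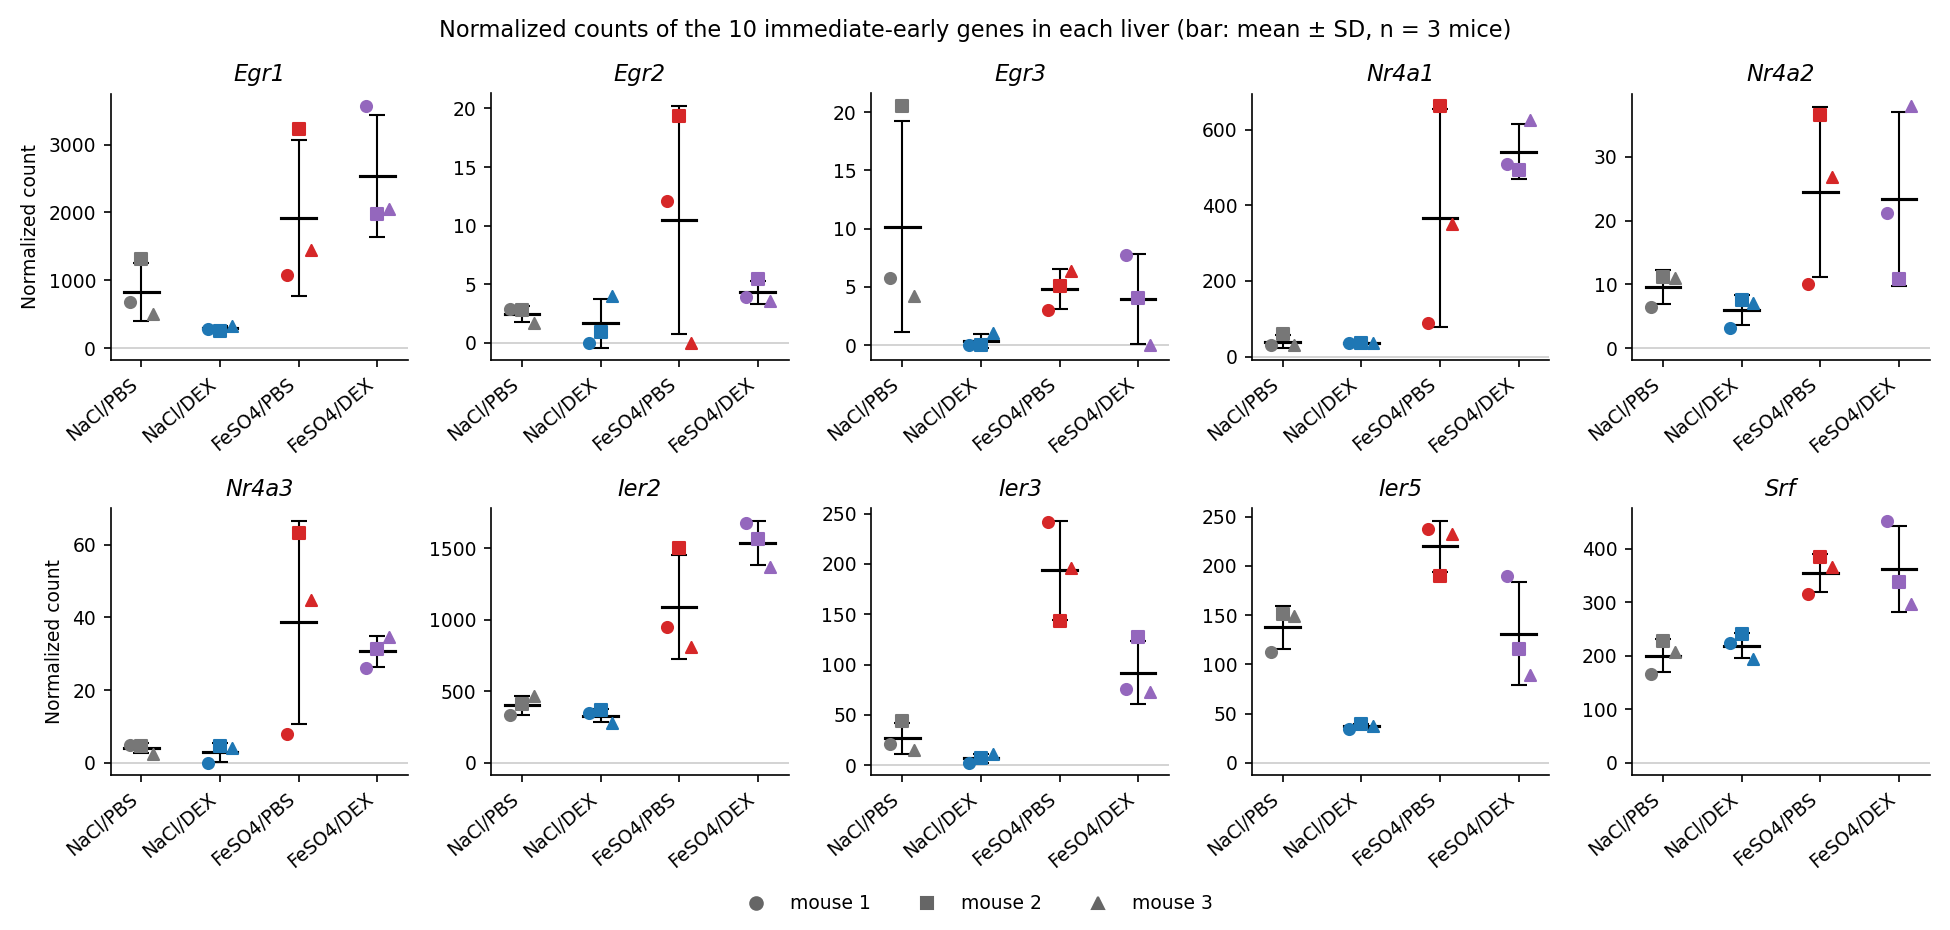
Normalized counts (linear axes) of the 10 members in each of the 12 livers, by group; symbols mark mouse 1, 2 and 3, and bars give the mean ± SD. Both FeSO4 groups lie above both NaCl groups for Nr4a1, Nr4a3, Ier2, Ier3 and Srf, and FeSO4/PBS mouse 1 is the lowest of its group for Egr1, Nr4a1, Nr4a2 and Nr4a3.

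The NR4A receptors were low in saline-treated liver and differed widely between FeSO4/PBS mice. Nr4a1 (NUR77; ENSMUSG00000023034, chr15:101151980-101172681, plus strand) had 29.5, 58.9 and 29.6 normalized counts in NaCl/PBS mice 1 to 3, and 87.7, 663 and 351 in FeSO4/PBS mice 1 to 3. Even the lowest FeSO4/PBS mouse exceeded the highest NaCl/PBS mouse, and the rise was 9.44-fold (LFC 3.24, 95% interval 2.11 to 4.37, edgeR FDR 1.6e-04), and 1.98% of tested genes had a higher LFC. FeSO4/PBS mouse 1 alone was far below its group, and leaving out FeSO4/PBS mouse 2 gave an LFC of 2.48, leaving out mouse 1 an LFC of 3.72. Nr4a3 (NOR1; ENSMUSG00000028341, chr4:48045153-48086447, plus strand) had 5.03, 4.67 and 2.54 in NaCl/PBS and 8.06, 63.1 and 44.6 in FeSO4/PBS, with the FeSO4/PBS mice in the same order as for Nr4a1 (LFC 3.19, SE 0.70, edgeR FDR 0.0016). Nr4a2 (NURR1; ENSMUSG00000026826, chr2:56996842-57014331, minus strand) had 6.47, 11.2 and 11.0 in NaCl/PBS and 10.1, 36.6 and 26.8 in FeSO4/PBS. For Nr4a2 the groups overlapped through FeSO4/PBS mouse 1, and the LFC of 1.36 (SE 0.54) was just past the threshold (edgeR FDR 0.048). The Nr4a2 call was kept in 3 of 12 fits with 1 mouse left out: it was lost without any NaCl/PBS or NaCl/DEX mouse, FeSO4/PBS mouse 2 or 3, or FeSO4/DEX mouse 1, where the FDR ran from 0.051 to 0.22.

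Egr1 rose from an already high level. Egr1 (ENSMUSG00000038418, plus strand of chromosome 18, 34992876 to 34998049) encodes the best known EGR factor, and had 679.6, 1314 and 498 normalized counts in NaCl/PBS mice 1 to 3 against 1079, 3231 and 1450.1 in FeSO4/PBS mice 1 to 3. The ranges overlapped, because NaCl/PBS mouse 2 lay above FeSO4/PBS mouse 1. The rise was 2.32-fold (LFC 1.21, 95% interval 0.37 to 2.05, edgeR FDR 0.018). It was not called without FeSO4/PBS mouse 2 (LFC 0.61, FDR 0.15), NaCl/PBS mouse 1 (1.09, FDR 0.066) or NaCl/PBS mouse 3 (0.95, FDR 0.078), and the LFC reached 1.71 without NaCl/PBS mouse 2. Egr2 (ENSMUSG00000037868), known from myelination and T cells, had 4, 3 and 2 reads in NaCl/PBS mice 1 to 3 and 12, 19 and 0 in FeSO4/PBS mice 1 to 3. Egr3 (ENSMUSG00000033730), a related factor of muscle spindles and lymphocytes, had 8, 22 and 5 reads in NaCl/PBS and 3, 5 and 5 in FeSO4/PBS. At these read numbers no change of Egr2 or Egr3 after FeSO4 was called. The groups overlapped for both (two-sided exact permutation p 0.4 and 0.5, where 3 against 3 mice cannot go below 0.1). Without the filter edgeR gave an LFC of 2.06 (FDR 0.063) for Egr2 and -1.05 (FDR 0.39) for Egr3. That fit took nothing from the spread between a gene's own mice.

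The IER genes and Srf rose too, with coefficients of variation between FeSO4/PBS mice of 10.1% to 33.6%, where those of the NR4A genes were 54.8% to 78.5%. Ier3 (IEX-1, a stress-induced regulator of survival; ENSMUSG00000003541, chr17:36132568-36133815, plus strand), whose promoter holds the NF-kappaB site shown earlier, had 20.9, 43.9 and 15.2 normalized counts in NaCl/PBS and 242, 143 and 196 in FeSO4/PBS mice. All FeSO4/PBS mice were higher, by 7.34-fold on average (LFC 2.88, SE 0.39, edgeR FDR 3.7e-05). Here mouse 1 was the highest of the FeSO4/PBS mice, the reverse of its place for the NR4A genes. Ier2 (ENSMUSG00000053560, chr8:85387960-85389483, minus strand), a small nuclear protein gene, had 334, 415 and 465 in NaCl/PBS and 952, 1506 and 812 in FeSO4/PBS mice (LFC 1.43, SE 0.20, edgeR FDR 5.3e-05), without overlap. Srf (ENSMUSG00000015605, chr17:46857767-46867119, minus strand) had 166, 227 and 207 in NaCl/PBS and 315, 384 and 366 in FeSO4/PBS mice, again without overlap (LFC 0.83, SE 0.17, edgeR FDR 0.0011). Ier5 (ENSMUSG00000056708, chr1:154972107-154975382, minus strand), a gene linked to heat shock factor activity, had 112, 151 and 149 in NaCl/PBS and 238, 190.2 and 232 in FeSO4/PBS mice. The groups of Ier5 did not overlap, and its LFC of 0.68 (SE 0.23, edgeR FDR 0.023) was the smallest of the 8; the call was lost without FeSO4/PBS mouse 1 (0.62, FDR 0.060), FeSO4/PBS mouse 3 (0.64, FDR 0.058) or NaCl/PBS mouse 1 (0.55, FDR 0.098). With library size alone as the scaling, Egr1, Nr4a2 and Ier5 were no longer called (FDR 0.066, 0.12 and 0.22), and the other 5 were.

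Markers of other cells moved in the same comparison, where 27.2% of all tested genes were called higher and 27.3% lower. Of 6 tested neutrophil markers 5 were called higher and 0 lower in FeSO4/PBS, and their summed level was 116 to 299 normalized counts in NaCl/PBS and 777 to 936 in FeSO4/PBS mice. Of 8 macrophage markers 0 were higher and 6 lower, from sums of 8036 to 9756 to sums of 4316 to 5068. Of 5 cholangiocyte markers 2 were higher and 0 lower, from sums of 533 to 682 to sums of 1069 to 1376. Those sums are mostly Sox9 and Spp1, which ran from 12.1 to 603 and from 376 to 784 over the 12 libraries. Krt19, Krt7 and Epcam reached at most 24.5, 24.2 and 42.3. Some lists moved both ways, with 2 higher and 3 lower of 7 endothelial markers, 2 and 1 of 7 stellate and mesenchymal markers, and 4 and 1 of 8 hepatocyte markers. No marker of these lists was at 0 in every library, and the part of these cells in the changes of the immediate-early genes was not tested.

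DEX without FeSO4 lowered 3 members and raised none. In NaCl/DEX against NaCl/PBS mice, edgeR called 0 of 8 higher and 3 lower. Of all tested genes 6.5% were called higher and 7.15% lower. At an unadjusted p under 0.05, 0 members were higher, where 1645 of all genes were. DESeq2 tested 8 members and called 0 higher and 3 lower. Of its 14117 genes, 1151 were higher and 1060 lower. Ier5, Ier3 and Egr1 were the 3, with LFCs of -1.88, -1.96 and -1.52. The median LFC of the 8 was -0.55, and that of all genes was -0.025. With the libraries of the compared groups alone, 6 members passed the filter, and 0 were called higher and 3 lower. Of the 6 neutrophil markers 0 were higher and 1 lower, with sums of 86.6 to 125 normalized counts in NaCl/DEX mice. Of the 8 macrophage markers none was called. Of 8 hepatocyte markers 3 were higher and 0 lower. Higher and lower numbered 1 and 1 of 7 endothelial markers, and 0 and 1 of 7 stellate and mesenchymal markers. Of 5 cholangiocyte markers 0 were higher and 1 lower, and the part of all these cells was not tested.

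Ier5 fell 3.69-fold, the firmest of the 3, from 112, 151 and 149 normalized counts in NaCl/PBS to 34.4, 39.5 and 37.3 in NaCl/DEX mice (LFC -1.88, SE 0.26, edgeR FDR 2.5e-04). It stayed called with any mouse left out, with LFCs up to -1.80 and FDRs up to 0.0020. Ier3 had 2.15, 6.58 and 11.1 in NaCl/DEX mice, all below the NaCl/PBS mice (LFC -1.96, SE 0.53, edgeR FDR 0.024), and rested on 20 reads in the NaCl/DEX group. Egr1 had 287, 258 and 325 in NaCl/DEX mice, a tight group below all NaCl/PBS mice (LFC -1.52, SE 0.41, edgeR FDR 0.023). Both calls leaned on single mice. Without NaCl/PBS mouse 2, the highest of its group for Egr1 and Ier3, the LFC of Egr1 was -1.01 (FDR 0.12) and that of Ier3 -1.42 (FDR 0.10). Both were also lost without NaCl/DEX mouse 1 (Egr1 -1.51, FDR 0.072; Ier3 -1.57, FDR 0.094) and without NaCl/DEX mouse 2 (Egr1 -1.44, FDR 0.082; Ier3 -1.95, FDR 0.076), and Egr1 without NaCl/DEX mouse 3 (-1.61, FDR 0.059).

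The NR4A genes, Ier2 and Srf were not called after DEX in saline-treated mice. Nr4a1 had 35.4, 34.8 and 36.2 normalized counts in NaCl/DEX mice, within the range of NaCl/PBS, and its LFC of -0.13 had a 95% interval of -1.42 to 1.16. Nr4a2 had 3.22, 7.52 and 7.05 (LFC -0.65, interval -1.997 to 0.70), and Nr4a3 0, 4.70 and 4.03 (LFC -0.44, interval -2.45 to 1.56), and both intervals include falls of several fold. Intervals were narrower for Ier2, with 347, 369.5 and 277 (LFC -0.29, interval -0.73 to 0.16), and for Srf, with 224, 239.8 and 193 (LFC 0.13, interval -0.24 to 0.51). Egr2 had 0, 1 and 4 reads in NaCl/DEX mice. Egr3 had 0, 0 and 1 reads, all below the 8, 22 and 5 reads of the NaCl/PBS mice, but it did not pass the filter, and a two-sided exact permutation test of its normalized counts gave p = 0.1, the lowest it can reach. Over each group, 35 reads stood against 1, a normalized ratio of 28.7 with an exact 95% interval of 4.83 to 1170.0 that covers counting error only. Without the filter edgeR called Egr3 lower (FDR 0.0027, fitted LFC -4.46, which depends on the prior count), in a fit that gives each gene the spread of the trend over 25013 genes and nothing of the spread between its own mice.

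**Figure D3:**
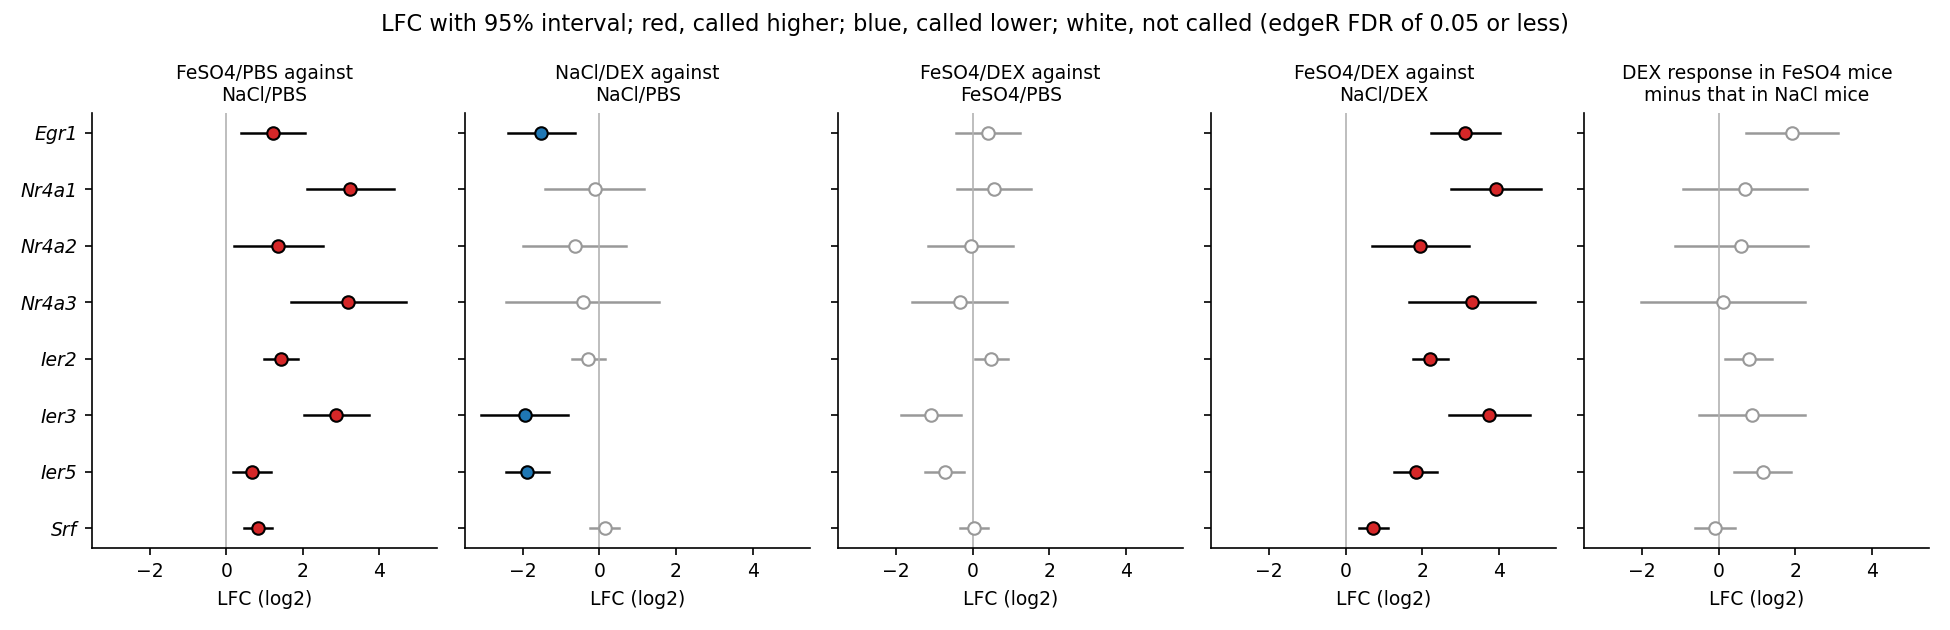
LFC (log2) of the 8 tested members in the 4 comparisons between groups and in the difference between the DEX responses; points are edgeR estimates, lines are 95% intervals, and filled points were called at an FDR of 0.05 or less. All 8 members are red in both FeSO4 comparisons, Egr1, Ier3 and Ier5 are blue after DEX in NaCl mice, and none is filled after DEX in FeSO4 mice or in the difference.

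After FeSO4, no member was called as changed by DEX. In FeSO4/DEX against FeSO4/PBS mice, edgeR called 0 of 8 members higher and 0 lower, and 0% of all 13857 tested genes higher and 0% lower. At an unadjusted p under 0.05 these were 1 and 2 members, and 444 and 456 genes, and DESeq2 called 0 members, 5 genes higher and 4 lower. The fit without the filter called 0 members higher and 1 lower (Ier3, FDR 0.0045), and 99 genes higher and 71 lower. Ier3 had 75.4, 128 and 72.5 normalized counts in FeSO4/DEX mice, all below the 143 to 242 of FeSO4/PBS mice (LFC -1.09, interval -1.86 to -0.31, unadjusted p 0.0092, edgeR FDR 0.71). Ier5 had 189, 116 and 89.2, all below the 190.2 to 238 of FeSO4/PBS mice, although mouse 1 lay close to them (LFC -0.73, interval -1.24 to -0.23, unadjusted p 0.0076, edgeR FDR 0.71). Ier3 and Ier5 are also the members with the lowest LFCs after DEX in saline-treated mice. The third member under an unadjusted p of 0.05 was Ier2, which had 1677, 1567 and 1367 and overlapped the FeSO4/PBS mice (LFC 0.50, interval 0.069 to 0.92, edgeR FDR 0.74).

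The remaining members had estimates on either side of 0 after DEX in FeSO4 mice. Egr1 had 3577, 1978 and 2057 normalized counts in FeSO4/DEX mice (LFC 0.40, interval -0.42 to 1.23). Nr4a1 had 508, 492 and 624, a narrow group that lay inside the wide range of FeSO4/PBS mice (LFC 0.56, interval -0.40 to 1.52). Nr4a3 had 26.1, 31.3 and 34.5 (LFC -0.33, interval -1.57 to 0.91), Nr4a2 had 21.3, 10.9 and 38.1 (LFC -0.053, interval -1.16 to 1.05), and Srf had 452, 337 and 296 (LFC 0.033, interval -0.33 to 0.40). Each of these 5 overlapped FeSO4/PBS. Egr2 had 4, 4 and 3 reads and Egr3 8, 3 and 0 reads in FeSO4/DEX mice.

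The difference between the 2 DEX responses was tested directly, as the LFC after DEX in FeSO4 mice minus that in NaCl mice. edgeR called 0 of 8 members higher and 0 lower, where 2.99% of all tested genes were called higher and 3.2% lower; 3 members were higher and 0 lower at an unadjusted p under 0.05, and DESeq2 called 1 higher (Ier5) and 0 lower. Egr1 came closest by size, with -1.52 in NaCl mice and 0.40 in FeSO4 mice, a difference of 1.92 (interval 0.72 to 3.12, edgeR FDR 0.060). Ier5 had -1.88 and -0.73, a difference of 1.15 (interval 0.40 to 1.90, edgeR FDR 0.070; DESeq2 FDR 0.049). Ier2 had -0.29 and 0.50, a difference of 0.78 (interval 0.17 to 1.40, edgeR FDR 0.13). Egr1 and Ier2 passed the threshold without FeSO4/PBS mouse 2 (differences of 2.52 and 1.08, FDR 0.0075 and 0.012), Egr1 without NaCl/PBS mouse 3 (2.17, FDR 0.046) and Ier5 without FeSO4/DEX mouse 3 (1.34, FDR 0.034). Leaving out other mice moved them away from it. The smallest differences were 1.41 for Egr1 (without NaCl/PBS mouse 2), 0.59 for Ier2 (FeSO4/PBS mouse 3) and 0.77 for Ier5 (FeSO4/DEX mouse 1). Their highest FDRs over these fits were 0.14, 0.30 and 0.16. Ier3, with -1.96 and -1.09, had a difference of 0.87 (interval -0.52 to 2.26), and those of the NR4A genes and Srf were between -0.10 and 0.69, with intervals that include 0.

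In DEX-treated mice, FeSO4 raised the same 8 members. In FeSO4/DEX against NaCl/DEX mice, edgeR called 8 of 8 higher and 0 lower. Of all tested genes 22.4% were called higher and 20.9% lower. At an unadjusted p under 0.05, 0 members were lower, where 3433 of all genes were. DESeq2 tested 10 members and called 8 higher and 0 lower. Of its 16841 genes, 3134 were higher and 3047 lower. The median LFC of the 8 in edgeR was 2.67, against 0.014 for all genes. No FeSO4/DEX mouse overlapped NaCl/DEX for any of the 8, and the share of all genes that separated in this way was not counted. Here too the filter could admit genes through the FeSO4 groups. With the libraries of the compared groups alone, 7 members passed it and 7 were called higher. Nr4a1 was 15.2-fold higher (LFC 3.93, SE 0.55, edgeR FDR 6.2e-05), Ier3 13.4-fold (LFC 3.75, SE 0.49, edgeR FDR 3.9e-05) and Egr1 8.76-fold (LFC 3.13, SE 0.42, edgeR FDR 5.1e-05). LFCs of 3.30, 2.21, 1.95, 1.83 and 0.73 were estimated for Nr4a3, Ier2, Nr4a2, Ier5 and Srf. Nr4a2 was not called without FeSO4/DEX mouse 3 (1.41, FDR 0.10) or NaCl/DEX mouse 1 (1.67, FDR 0.065). The 6 tested neutrophil markers were all called higher here, from sums of 86.6 to 125 to sums of 593 to 714, and 6 of 8 macrophage markers lower, from sums of 7561 to 8904 to sums of 3476 to 5920, and their part was again not tested.

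Other genes of the same class were read from a list of 28 immediate-early genes that are not members, of which 25 passed the filter. The list includes 1 further EGR gene, Egr4, which did not pass, and 1 further IER gene, Ier5l, which did. After FeSO4, 24 of the 25 were called higher and 0 lower, where 27.2% of all tested genes were called higher and 27.3% lower. These counts were the same with any mouse left out, and the median LFC of the 25 was 2.85. Genes near 0 in NaCl mice, such as Fosl1, could pass the filter through the FeSO4 groups. Fosl1, a FOS-family partner of JUN, went from 0.312 ± 0.540 to 264 ± 29.5 normalized counts (SD, n = 3), and the lowest called LFC was that of the antiproliferative gene Btg1 (1.58, edgeR FDR 3.8e-06). Ier5l, a paralog of Ier5, was the one not called (LFC -0.75, edgeR FDR 0.24). After DEX in saline-treated mice the list split, with 10 higher and 2 lower of 25, where 6.5% of all tested genes were called higher and 7.15% lower. Gadd45b, a growth arrest and DNA damage gene, had the highest LFC (4.34, edgeR FDR 8.2e-05), and Junb, a JUN family member, the lowest (-3.31, edgeR FDR 4.1e-05), with Klf10 the other lower gene. After DEX in FeSO4 mice edgeR called 0 higher and 0 lower, and 0% of all tested genes in either direction. At an unadjusted p under 0.05, 5 were higher and 2 lower, where 444 and 456 of all tested genes were. DESeq2 called Myc higher and Klf10 lower, among 5 genes higher and 4 lower over all. Without the filter edgeR called 9 higher and 1 lower of 27, with Myc first (LFC 1.32) and Klf10 the lower one (LFC -1.45). Over all 25013 genes that fit called 99 higher and 71 lower. In the difference between DEX responses 1 gene, Junb, was higher and 6 were lower, Gadd45b furthest (-3.07, edgeR FDR 0.013). Over all tested genes 2.99% were higher and 3.2% lower there. In FeSO4/DEX against NaCl/DEX mice 22 were higher and 0 lower, where 22.4% of all tested genes were called higher and 20.9% lower.

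**Figure D4:**
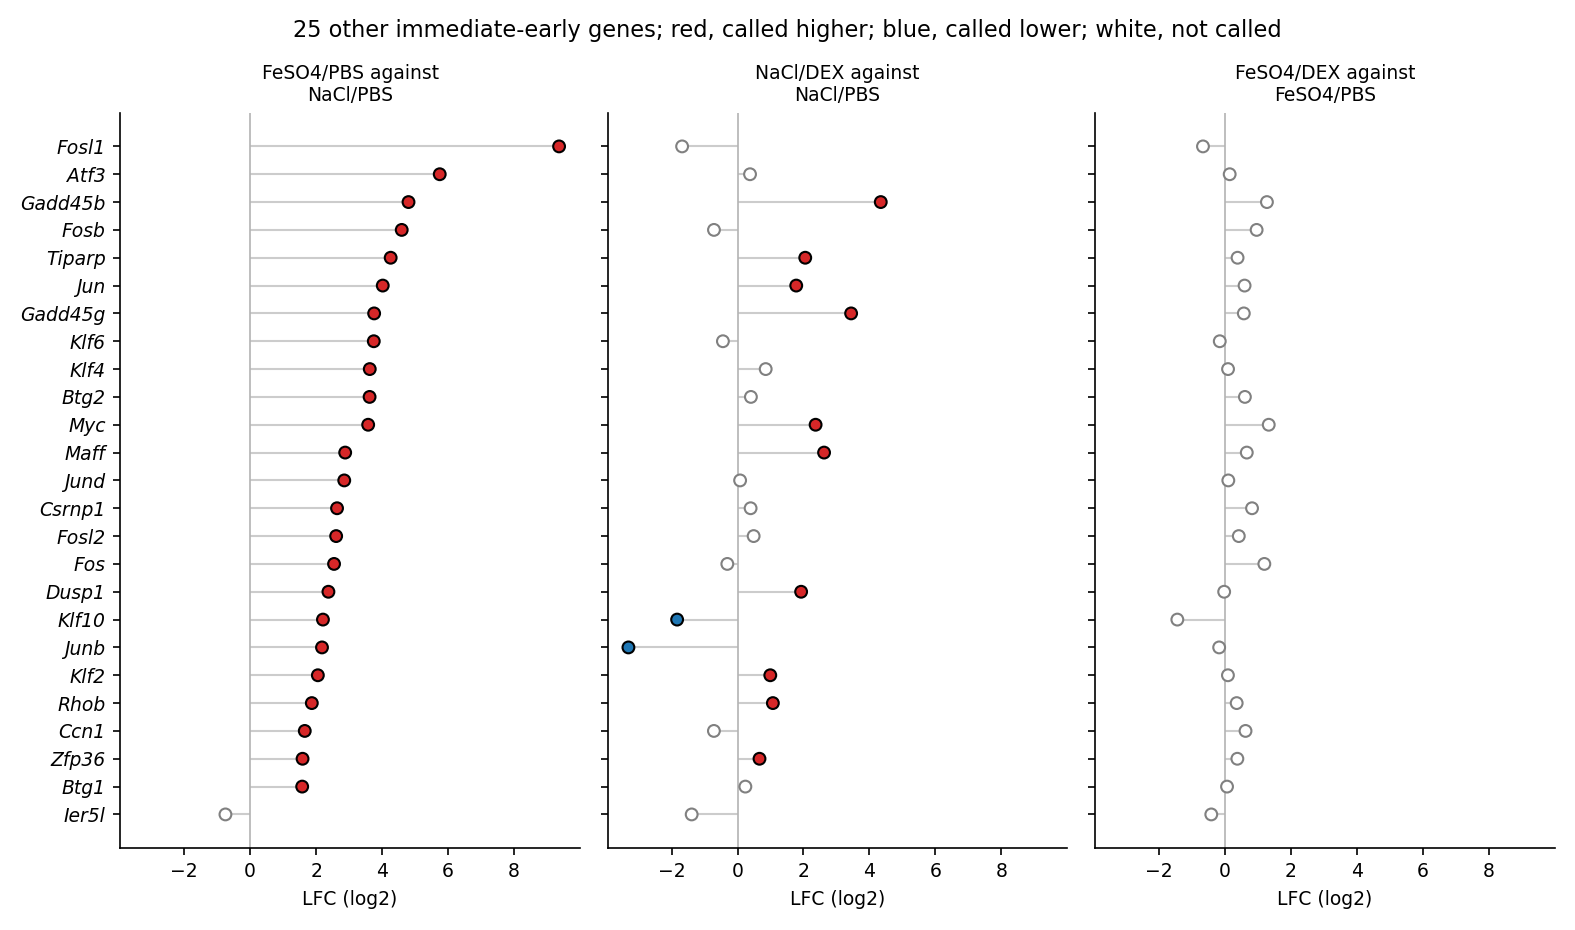
LFC (log2) of the 25 tested immediate-early genes that are not members, Ier5l among them. Panels show FeSO4, DEX in NaCl mice and DEX in FeSO4 mice. Filled points were called by edgeR at an FDR of 0.05 or less. In the left panel 24 genes are called higher; in the middle 10 are higher and 2 lower, and on the right none is called. The estimate for Fosl1 on the left depends on the prior count, since NaCl mice had nearly no reads.

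The partners and targets of the members moved less uniformly after FeSO4, where 27.2% of all tested genes were called higher and 27.3% lower. Counts near those shares, such as 3 of 10, are no result about a list. Among 5 tested SRF cofactors, Elk1, Elk4, Mrtfa and Mrtfb were called higher and Elk3, which encodes a ternary complex factor that can repress, lower (LFC -2.26, edgeR FDR 1.0e-06), while Elk4 had the highest LFC (1.28, edgeR FDR 7.5e-06). Of 12 cytoskeletal targets of SRF, 7 were called higher and 0 lower, with Tpm1 (tropomyosin, LFC 0.36) lowest and Actg1 (gamma-actin, edgeR FDR 3.1e-06) highest. In the CREB arm 4 of 8 were higher, with the kinase gene Sik1 first (LFC 1.58, edgeR FDR 9.8e-04), and Creb1 itself was lower (-0.64, edgeR FDR 0.0036). Of 10 genes of the route through MAPK and ERK, 5 were higher, with the EGF receptor ligand Hbegf first (LFC 2.31, edgeR FDR 1.6e-04), and 3 lower, with the kinase gene Rps6ka1 last (-1.57, edgeR FDR 2.3e-05). Of 10 EGR corepressors and targets 1, the urokinase receptor gene Plaur, was higher (LFC 3.97, edgeR FDR 1.4e-06), and 3 were lower. The corepressor gene Nab2, which EGR proteins are known to induce and which restrains them, had the lowest LFC (-3.73, edgeR FDR 3.1e-08) while Egr1 rose. Of 7 NR4A partners and liver targets, edgeR called 0 higher and 0 lower, with 0 at an unadjusted p under 0.05 and 0 by DESeq2. With library size alone as the scaling, 4 were called lower and 0 higher. That scaling called 5829 of all 13857 tested genes lower and 2285 higher, so the 4 are no result about this list.

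After DEX in saline-treated mice, where 6.5% of all tested genes were called higher and 7.15% lower, 5 of the 10 EGR corepressors and targets were called lower, as was Egr1. Of the 10, 0 were higher (0 at an unadjusted p under 0.05 and 0 by DESeq2), and the 5 were Nab2, Tgfb1, Pdgfa, F3 and Icam1. The adhesion molecule gene Icam1 had the lowest LFC (-2.17, edgeR FDR 0.0023), and the count was 3 to 5 with 1 mouse left out. Of 5 SRF cofactors 3 were higher and 1 lower, with Mrtfb highest (1.09) and Elk3 lowest (-1.46), and of 12 cytoskeletal targets 2 were higher, Actb and Ccn2, and 0 lower. Lower genes numbered 2 of 8 in the CREB arm (Crtc1 and Crtc3), 1 of 7 among NR4A partners and targets (Rxrg) and 1 of 10 on the route through MAPK and ERK (Rps6ka1), and in these 3 lists edgeR called 0 higher. After DEX in FeSO4 mice, edgeR called 0 genes of these 6 lists in either direction, and DESeq2 called 0. At an unadjusted p under 0.05, 2 were higher and 0 lower, where 444 and 456 of all tested genes were. Without the filter Sik1 was called higher (LFC 0.78, edgeR FDR 2.6e-05) and Icam1 lower (-0.56, edgeR FDR 0.046).

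Over the 12 libraries, the log2 levels of the 8 members ran together, with Pearson r from 0.50 for Nr4a1 with Ier5 to 0.94 for Nr4a1 with Ier2. These values are a description: the libraries share the 4 groups, so that any gene that follows FeSO4 will correlate. The search for the most alike tested gene left out the members, Rik and Gm genes and genes without a symbol. Among the rest it was Rab20 for Egr1 (r 0.96), Frs2 for Nr4a1 (0.98), Fam83g for Nr4a2 (0.97) and Scarb2 for Nr4a3 (0.98). For Ier2 it was Atp2a1 (0.98), for Ier3 Soat2 (0.98), for Ier5 Cdr2l (0.97) and for Srf Mamstr (0.96). Among the IER genes r was 0.79 between Ier2 and Ier3, 0.61 between Ier2 and Ier5 and 0.85 between Ier3 and Ier5, all inside the range over the 8 members.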

How the data were processed

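RNA of 12 mouse livers was sequenced with a stranded mRNA kit. Per the labels and the study's methods, the authors ran FastQC on the reads, aligned them against mm39 using STAR 2.7.10b and GENCODE junctions, and deposited raw counts per gene as given by STAR; which strand column was kept is not given in the sources used here, so reads of lncRNAs that overlap Egr2, Nr4a1, Nr4a3, Ier3, Ier5 or Srf in GENCODE vM39 and have no row in the table cannot be told apart from theirs. Symbols came from GENCODE vM39 (54749 of 55414 rows matched).

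Counts were filtered with filterByExpr, scaled by TMM and fitted in edgeR 4.0.16 (R 4.3.3) as 1 quasi-likelihood model of 4 group means, with Benjamini-Hochberg FDR over 13857 genes. DESeq2 1.42.0 was an alternative, as were other scalings, filters, a replicate block and leaving out each mouse. The code was tested on simulated data. The labels number the mice but name no batch or pairing, and same-numbered mice correlated in their deviations between -0.09 and 0.13. The edgeR p-values take the mice as independent, and an unnamed batch could not be checked. They use 1 spread per gene estimated over the 4 groups and moderated over genes (prior degrees of freedom 5.93), although the spread differed between groups. No libraries of a group agreed within sampling noise (chi-square per gene 16.8 to 83.9). Permutation tests were two-sided and exact. Genes were named as members, as the lowest and highest called of each list, as the most alike by r, or, after their values were seen, where a count was 5 or fewer or a single gene of a list stood apart. Members and lists were chosen with earlier results of these data known. Motifs were searched as exact letters on both strands of GRCm39 with Python scripts, for 8 of the 10 members; the remaining promoters are not reported here.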

Additional observations from a re-analysis of the deposited data

How the results depend on the processing

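With library size alone as the scaling, the median LFC of all genes moved to -0.34 after FeSO4, -0.18 after DEX in NaCl mice, -0.18 for FeSO4 in DEX mice and 0.15 for the difference between DEX responses. Then 5 members were higher after FeSO4 (Egr1 at 0.90, Nr4a2 at 1.05 and Ier5 at 0.36 were lost), 1 (Egr1) was higher in the difference, and Srf changed sign after DEX in NaCl mice (-0.018) and in the difference (0.025). Without a filter, where the prior degrees of freedom were infinite and no gene's own spread entered its test, 4 members were lower after DEX in NaCl mice (Egr3 added), 1 was lower after DEX in FeSO4 mice (Ier3), and 3 were higher in the difference (Egr1, Ier2 and Ier5). Over all genes it called 99 higher and 71 lower after DEX in FeSO4 mice, where the filtered fit called 0, and 683 higher and 776 lower in the difference, against 414 and 443. With at least 10 counts in every library 5 members remained testable, and 5 were higher in either FeSO4 comparison. DESeq2 called 1 member higher in the difference and lost Nr4a2 after FeSO4. The fit of the compared groups alone also lost Nr4a2 after FeSO4, and there 7 members passed the filter. A minimum LFC of 1 left out Ier5 and Srf after FeSO4 and Srf for FeSO4 in DEX mice.

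With 1 mouse left out, the count of members higher after FeSO4 ran from 5 to 8, of members lower after DEX in NaCl mice from 1 to 3, and of members higher in the difference from 0 to 2. LFCs that crossed 0 were those after DEX in FeSO4 mice of Nr4a2 (-0.58 to 0.38), Nr4a3 (-0.84 to 0.24) and Srf (-0.17 to 0.15), after DEX in NaCl mice of Nr4a1 (-0.30 to 0.27) and Nr4a3 (-0.95 to 0.090), and in the difference of Nr4a3 (-0.42 to 0.69) and Srf (-0.30 to 0.0041); none of these was called. The cause of these changes was not tested. A replicate block changed no member's call and turned Nr4a2 after DEX in FeSO4 mice to 0.026; the mice share a number and no stated pairing. Reads limit Egr2, Egr3, Nr4a2 and Nr4a3 most.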
